A study of Mus musculus with 27 samples.

Results

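Small structured noncoding RNAs were followed in RAW264.7 cells, an established mouse macrophage line, across total RNA sequencing, sequencing of RNA recovered with an antibody to HuR (RIP) and sequencing of RNA recovered with control IgG. The members are 6 gene names, namely Bc1, Rn7sk, Rmrp, Rpph1, Rprl2 and Vaultrc5, taken by name from the deposited count table. They match 7 of its 55483 rows, since Rmrp has 2 rows. Bc1 was chosen because earlier results of these data showed little of it in RIP relative to RNA. Its RIP over RNA and RIP over IgG values, and its change of RIP over RNA with treatment, are therefore given as descriptions with no test. The other members were chosen by name, with earlier results of these data known.

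The study asked how tanshinone mimics, small molecules made to interfere with the binding of HuR to RNA, act on the macrophage response to lipopolysaccharide (LPS). Cells were kept for 6 h with DMSO alone, with LPS at 1 µg/ml and DMSO, or with LPS at 1 µg/ml and the mimic TM7nox at 10 µM. Each of these 3 treatments had 4 RNA libraries and 4 RIP libraries with replicate numbers 1 to 4, and 1 IgG library, which carried replicate number 3. The labels do not say that replicates came from separate cultures, so p-values measure the spread between these samples, which may be technical. RNA was taken from cell pellets, whereas RIP and IgG RNA came from a detergent lysate cleared by centrifugation. RIP and RNA therefore differ in extract as well as in selection.

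RNA polymerase III, which also makes tRNAs and 5S rRNA, transcribes these RNAs, and they work as folded RNAs bound by proteins. 7SK RNA (Rn7sk) is a nuclear scaffold on which Hexim proteins hold the kinase P-TEFb inactive. Bc1 is a rodent RNA that arose from a tRNA gene, is best known from neurons, and represses translation initiation. Vault RNAs (Vaultrc5) belong to the vault particle of the cytoplasm. Rmrp and Rpph1 are the RNA subunits of the nucleases RNase MRP and RNase P, which process precursor rRNA and precursor tRNA, and Rprl2 is named for its likeness to the RNase P RNA. HuR, encoded by Elavl1, binds U-rich and AU-rich stretches, mainly in mRNAs.

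The sequences below come from the mouse genome build GRCm39 with the GENCODE M39 annotation, written 5′ to 3′ as DNA. Bc1 (ENSMUSG00000115783, chr7:144468199-144468374, plus strand, 176 bases) is shown whole because its tRNA-like start and its A-rich middle are visible in the letters, and capitals mark the polymerase III A box and B box. The first 100 bases of Rn7sk (ENSMUSG00000065037, chr9:78082585-78082915, minus strand, 331 bases) are shown for the GATC sites in capitals, since Hexim1 is known to bind such sites at the 5′ end of 7SK. Bases 191 to 290 of Rprl2 (ENSMUSG00000087775, chr3:22305538-22305827, plus strand, 290 bases) and of its relative Rprl3 (chr8:3853069-3853358, minus strand, 290 bases) are shown because they share a 3′ end, and capitals mark the bases that differ.
Bc1: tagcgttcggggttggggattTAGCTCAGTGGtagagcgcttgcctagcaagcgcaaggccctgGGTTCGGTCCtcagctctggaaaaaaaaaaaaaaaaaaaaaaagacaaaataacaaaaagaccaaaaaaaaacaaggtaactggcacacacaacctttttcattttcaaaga
Rn7sk: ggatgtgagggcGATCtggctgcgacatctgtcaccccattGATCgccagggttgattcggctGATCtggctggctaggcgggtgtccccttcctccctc
Rprl2: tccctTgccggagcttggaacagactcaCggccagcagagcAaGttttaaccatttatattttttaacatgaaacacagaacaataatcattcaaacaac
Rprl3: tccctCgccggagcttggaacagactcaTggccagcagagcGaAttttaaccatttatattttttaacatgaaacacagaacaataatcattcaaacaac

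T made up 18.75% of Bc1, 22.4% of Rn7sk, 20.0% of Rprl2 and 25.9% of Vaultrc5 (ENSMUSG00000065145, chr18:36934919-36935061, plus strand, 143 bases). These shares were set against the 3′ ends, cut to each member's length, of the longest transcripts of the tested genes. A lower T share was found in 4.96% of 14018 such ends for Bc1, in 14.1% of 13886 for Rn7sk, in 5.96% of 13940 for Rprl2 and in 27.3% of 14046 for Vaultrc5. All 4 expressed members thus lay below the median end in T, and Bc1 and Rprl2 were far toward its low side. TTTTT and ATTTA, short stand-ins for U-rich and AU-rich stretches, were both present in Bc1 and Rprl2 and both absent from Rn7sk and Vaultrc5. TTTTT was found in 38.2% of the ends of Bc1's length and ATTTA in 27.1%. A made up 40.3% of the whole of Bc1, whose longest run was 23 A.

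The A box was searched as TAGCNNAGTGG and the B box as GGTTCGNTCC, on both strands of the RefSeq promoter windows of GRCm38.p6, which run from 250 bases before to 50 bases after each start. The A box letters were in 0.265% of 32851 windows, the window of Bc1 among them. The B box letters were in 0.113%, and for Bc1 they lie within the transcript beyond that window. These matches describe letters only.

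Sequence copies limit some of these counts. Of the 50-base windows of Rn7sk, 192 of 282 (68.1%) occur again exactly elsewhere in the genome, and so do 60 of 127 (47.2%) of those of Bc1, which shares its letters with interspersed repeats and pseudogenes. The share was 3.73% for Rprl2, and no window recurred for Vaultrc5, Rpph1 or the Rmrp ribozyme. The way reads that fit several places were counted, like the strand setting, is not given in the sources used here, so values of Rn7sk and Bc1 may hold or lack reads of copies.

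Library depth ran from 2728534 counts (RNA DMSO replicate 1) to 28285856 in RNA, from 19816312 to 41449233 in RIP and from 8873091 to 24513902 in IgG. Levels are given as CPM, read counts scaled to library size by TMM, and on this scale 3 counts are 0.0772 to 0.636 CPM in an RNA library and 0.0910 to 0.270 CPM in a RIP library. The 8 macrophage markers were above 0 in all 12 RNA libraries, with summed levels of 2536 to 5923 CPM. Of the 6 neuron markers, none passed 0.475 CPM in any RNA library, their summed level was at most 0.949 CPM, and Nefl, a neurofilament gene, was at 0 in all 12. The epithelial marker Epcam was at 0 in all 12 RNA libraries as well. Cdh1, also an epithelial marker, was at 0 in 11 of them and reached 0.340 CPM. The endothelial markers Pecam1 and Cdh5 were above 0 in all 12. They reached 1.06 and 1.37 CPM, more than any neuron marker. Of the T cell, B cell and fibroblast markers, Cd79a was the highest and reached 0.225 CPM. Elavl1 mRNA was at 74.1 to 127 CPM in RNA, 2082 to 5314 CPM in RIP and 60.7 to 90.8 CPM in IgG. Called below means an adjusted p under 0.05 in edgeR's quasi-likelihood test with Benjamini-Hochberg adjustment over all genes tested.

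Of the 7 rows, 4 passed the filter on low counts in RNA (Bc1, Rn7sk, Rprl2 and Vaultrc5) and 3 passed in RIP, where Rprl2 did not. Compared per kilobase of gene, Rn7sk was the most abundant of the 4 members that passed in RNA. In RNA of LPS-treated cells its mean level was 13652 ± 1375 CPM per kilobase (SD, n = 4), that of Vaultrc5 was 2141 ± 1082 and that of Bc1 was 688 ± 403. The order was the same with DMSO, at 9344 ± 1951, 1153 ± 1061 and 485 ± 450 CPM per kilobase. Rn7sk stood clear of the other members that passed, whereas the libraries of Vaultrc5 and Bc1 overlapped per kilobase in both treatments.

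**Figure D1:**
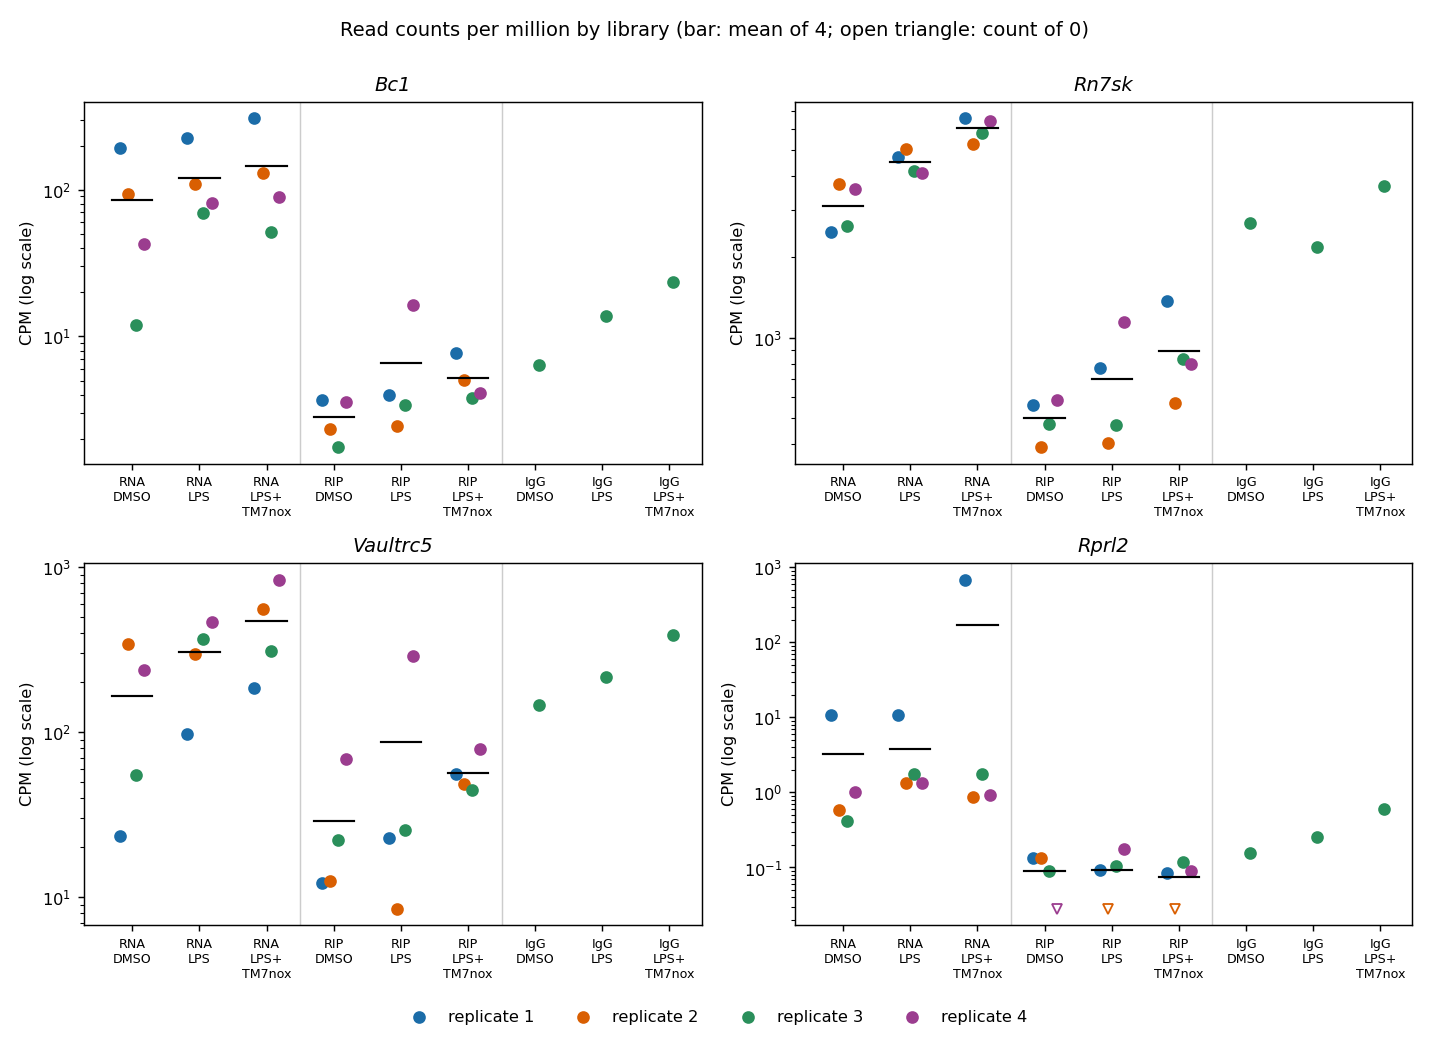
Levels of Bc1, Rn7sk, Vaultrc5 and Rprl2 in each library, in CPM on a log axis, by treatment for RNA, RIP and IgG; bars are means of 4 libraries and open triangles mark a count of 0. Points that stand apart within their group are RNA replicate 1 of each treatment for Rprl2, at 10.8, 10.7 and 682 CPM, and RIP of LPS replicate 4 for Vaultrc5 and Bc1, at 289 and 16.5 CPM.

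Rn7sk rose in RNA after LPS. Its RNA levels in replicates 1 to 4 were 2476, 3726, 2600 and 3569 CPM with DMSO, 4719, 5065, 4190 and 4100 CPM with LPS, and 6573, 5287, 5807 and 6441 CPM with LPS plus TM7nox. The 3 groups did not overlap. LPS over DMSO was 1.43-fold (log2 0.52, SE 0.166, 95% interval 0.20 to 0.85, adjusted p = 0.0208). It was the 1 member called of 4 in that comparison, in which 42% of the 12369 genes tested were called and 20.2% were called higher. The call was lost without RNA LPS replicate 2 (log2 0.47, adjusted p = 0.0563) or without RNA DMSO replicate 3 (log2 0.45, adjusted p = 0.0672). It was also lost with replicates 1 and 2 only (log2 0.67, adjusted p = 0.143) and with scaling to library totals (log2 0.25, adjusted p = 0.254).

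LPS plus TM7nox over LPS was 1.34-fold for Rn7sk in RNA (log2 0.42, SE 0.166), which did not pass (adjusted p = 0.121). The fit with the replicate number as a block gave 0.42 with adjusted p = 0.0377, and DESeq2 gave an adjusted p of 0.0378. Of all genes, 23.0% were called with the block and 18.5% by DESeq2. The fit without the block by edgeR called 0 of the 4 members in that comparison, against 13.8% of all genes. Rn7sk and Rprl2 had an unadjusted p under 0.05, and DESeq2 called 1, Rn7sk. The 2 treatment comparisons share the LPS libraries.

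In RIP, Rn7sk was far below its RNA level in each treatment. The RIP levels were 561, 391, 477 and 586 CPM with DMSO, 771, 406, 473 and 1149 CPM with LPS, and 1367, 572, 833 and 795 CPM with LPS plus TM7nox. Each RIP library was below every RNA library of its treatment. RIP over RNA was 5.70-fold lower with DMSO (log2 -2.51, SE 0.289, adjusted p = 3.11e-08), 6.40-fold lower with LPS (log2 -2.68, SE 0.291, adjusted p = 1.59e-08) and 6.86-fold lower with LPS plus TM7nox (log2 -2.78, SE 0.292, adjusted p = 6.67e-09). The comparison is broad: of the 14311 genes tested, 70.4%, 63.7% and 69.9% were called in the 3 treatments, and 33.4%, 30.8% and 34.8% were called lower in RIP. Of the 2 members besides Bc1 that passed the filter in both assays, Rn7sk and Vaultrc5, edgeR and DESeq2 each called 2, 1 and 2 lower. Between treatments within RIP, Rn7sk was at log2 0.46 for LPS over DMSO (SE 0.317, adjusted p = 0.253; -0.13 with library totals) and 0.30 for LPS plus TM7nox over LPS (SE 0.316, adjusted p = 0.56). Without RIP LPS replicate 4 these were 0.0857 and 0.66, and without RIP LPS plus TM7nox replicate 1 the latter was 0.0272.

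The IgG libraries held more Rn7sk than the RIP libraries. They were at 2672 CPM with DMSO, 2174 CPM with LPS and 3686 CPM with LPS plus TM7nox, each above all 12 RIP libraries. RIP over IgG, with treatment in the fit, was 4.17-fold lower (log2 -2.06, SE 0.250, adjusted p = 5.02e-07, 12 RIP against 3 IgG libraries). In that comparison 2 of the 2 members tested besides Bc1 were called, both lower, where 68.1% of all 14973 genes tested were called and 34.2% were called lower. Set against the RNA library of the same number and treatment, the IgG level of Rn7sk differed by log2 0.04, -0.95 and -0.66, values with no test.

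Bc1 was chosen for its low RIP level, and its values describe that choice. Its RNA levels in replicates 1 to 4 were 193, 93.8, 12 and 42.7 CPM with DMSO, 225, 110, 69.1 and 81.3 CPM with LPS, and 307, 130, 51.9 and 88.8 CPM with LPS plus TM7nox. Its RIP levels were 3.69, 2.35, 1.76 and 3.57 CPM with DMSO, 3.98, 2.47, 3.42 and 16.5 CPM with LPS, and 7.73, 5.08, 3.79 and 4.14 CPM with LPS plus TM7nox. In RNA, replicate 1 was highest and replicate 3 lowest in each treatment, and RIP LPS replicate 4 stood above the other RIP libraries. No RIP library reached an RNA library of its treatment.

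RIP over RNA of Bc1 was 26.3-fold lower with DMSO, 18.2-fold lower with LPS and 27-fold lower with LPS plus TM7nox (log2 -4.71, -4.18 and -4.76). Leaving out 1 library in turn, the log2 values ran from -5.09 to -4.09, from -5.19 to -3.76 and from -5.04 to -4.17. Ordered from the lowest RIP over RNA among 14311 genes, Bc1 was at places 2, 2 and 3. Between RIP and RNA libraries of the same number the log2 difference ran from -5.68 to -2.71 with DMSO, from -5.79 to -2.30 with LPS and from -5.30 to -3.75 with LPS plus TM7nox. The IgG libraries were at 6.36, 13.7 and 23.5 CPM, and RIP over IgG was 2.88-fold lower (log2 -1.52). The RIP and IgG libraries overlapped, and IgG itself was below the same-numbered RNA library by log2 differences of -0.91, -2.33 and -1.14.

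**Figure D2:**
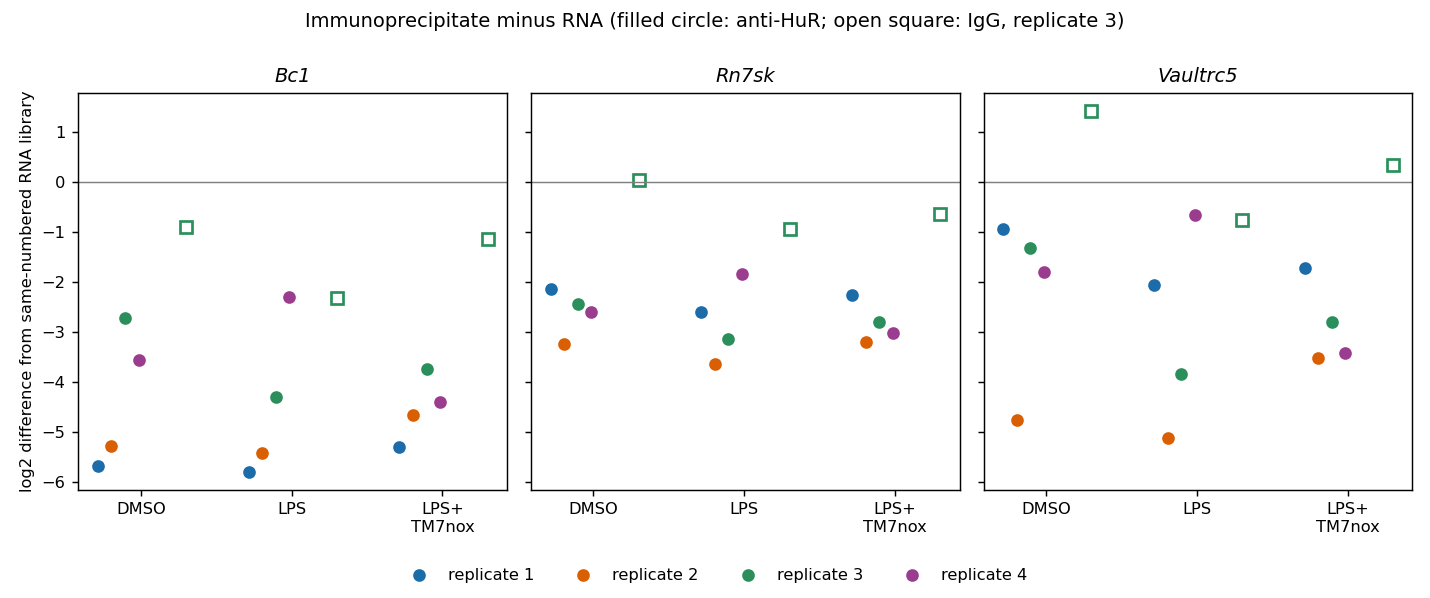
The log2 difference between each anti-HuR RIP library (filled circles) or IgG library (open squares) and the RNA library of the same number and treatment, for Bc1, Rn7sk and Vaultrc5, where 0 means equal levels. The anti-HuR points of Rn7sk lie between -3.64 and -1.84, those of Bc1 reach -5.79, and the IgG points of Rn7sk lie between -0.95 and 0.04.

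The treatment responses of Bc1 were not part of its choice. In RNA, LPS over DMSO was log2 0.48 (SE 0.696, adjusted p = 0.619), and the groups overlapped. With the replicate block it was 0.88 with adjusted p = 0.0188, and without RNA LPS replicate 1 the unblocked value was -0.0113. That last fit kept RNA DMSO replicate 1, the highest of its group at 193 CPM. In every same-numbered pair the LPS library was above the DMSO library. Within each treatment the RNA libraries ranged more widely than the group means differed. LPS plus TM7nox over LPS was 0.25 (SE 0.689, adjusted p = 0.868). With the block, 3 of the 4 members (Bc1, Rn7sk and Vaultrc5) were called for LPS over DMSO in RNA, where 49.5% of all genes were.

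In RIP, LPS over DMSO for Bc1 was log2 1.18 (SE 0.490, adjusted p = 0.0593). The block gave 0.94 with adjusted p = 0.0273 and DESeq2 gave 1.16 with adjusted p = 0.0391, where 57.1% and 47.4% of all genes were called. Without RIP LPS replicate 4 the value was 0.17, and it passed without RIP LPS replicate 1 (adjusted p = 0.0491), 2 (0.0225) or 3 (0.0418). edgeR called 0 of the 3 members for LPS over DMSO in RIP, against 44.7% of all genes. Bc1 was the 1 member with an unadjusted p under 0.05 there, and the 1 member DESeq2 called. For LPS plus TM7nox over LPS in RIP, edgeR called 0 of 3, with 0 at an unadjusted p under 0.05 and 0 by DESeq2, which gave no adjusted p for Vaultrc5 in either RIP treatment comparison, against 16.2% of all genes, and Bc1 was at -0.37 (SE 0.483, adjusted p = 0.647; 0.63 without RIP LPS replicate 4).

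**Figure D3:**
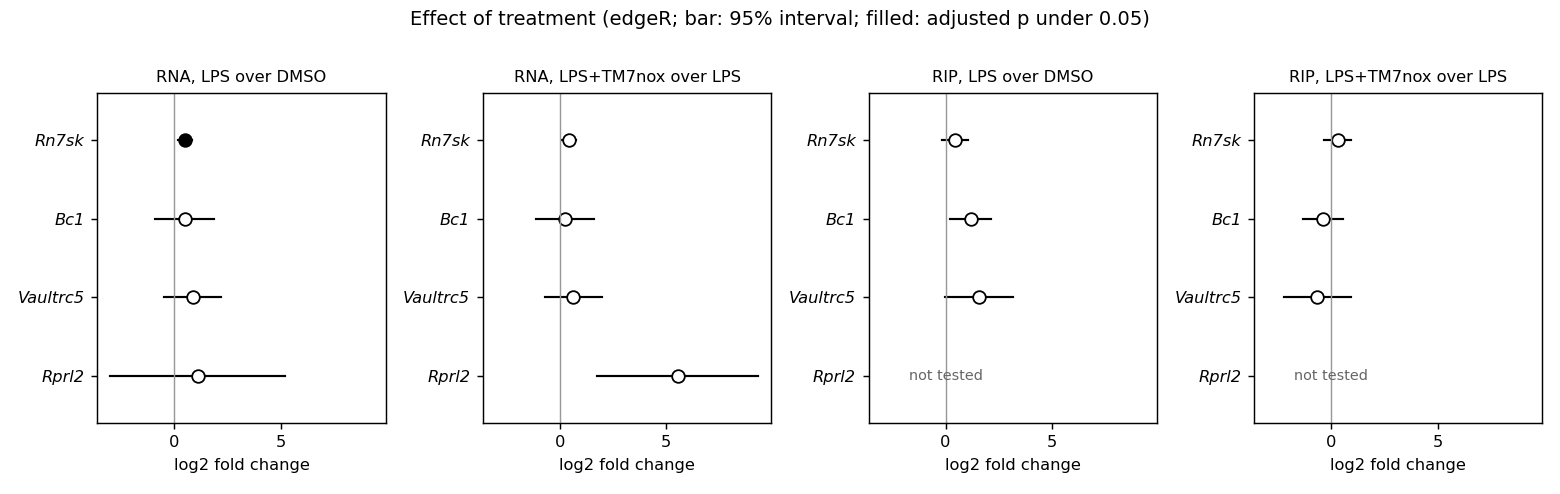
Log2 fold changes of the members by edgeR for LPS over DMSO and for LPS plus TM7nox over LPS, in RNA and in RIP, with 95% intervals as bars; filled points have an adjusted p under 0.05, and Rprl2 was not tested in RIP. The filled point is Rn7sk for LPS over DMSO in RNA, at 0.52.

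RIP LPS replicate 4 was also the highest library of its group for Rn7sk, for Vaultrc5 and for the mitochondrial rRNAs. Its mt-Rnr2 level was 15410 CPM in a group that ran from 1762 CPM, and its mt-Rnr1 level was 8167 CPM. The mitochondrial rRNAs, which are inside mitochondria, were called lower in RIP than in RNA in each treatment (with DMSO mt-Rnr1 by log2 -4.08 and mt-Rnr2 by -4.75). The part of this library's make-up in the values of the members was not tested.

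Vaultrc5 varied more between replicates than Rn7sk. Its RNA levels were 23.3, 342, 55.1 and 239 CPM with DMSO, 96.7, 298, 368 and 461 CPM with LPS, and 184, 554, 311 and 837 CPM with LPS plus TM7nox. Its RIP levels were 12.1, 12.5, 22.0 and 68.6 CPM with DMSO, 22.9, 8.51, 25.5 and 289 CPM with LPS, and 55.8, 48.4, 44.6 and 78.4 CPM with LPS plus TM7nox. RNA replicate 1 was the lowest RNA library in each treatment, and the RNA groups overlapped throughout.

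RIP over RNA of Vaultrc5 was 5.46-fold lower with DMSO (log2 -2.45, SE 0.873, adjusted p = 0.0151) and 8.54-fold lower with LPS plus TM7nox (log2 -3.09, SE 0.895, adjusted p = 0.00351). With LPS it was -1.83 (SE 0.851, adjusted p = 0.0632), and -3.99 with adjusted p = 0.000135 without RIP LPS replicate 4. The block called it as well, at -2.48 with adjusted p = 0.000854, and it also passed without RNA DMSO replicate 1 (0.0477) or RNA LPS replicate 1 (0.0374). With DMSO the call was lost without RNA DMSO replicate 2 (log2 -1.84, adjusted p = 0.0668) and with replicates 3 and 4 only (-1.64, 0.118). Leaving out 1 library in turn, the value with DMSO ran from -3.36 to -1.84. RIP over IgG was 4.70-fold lower (log2 -2.23, SE 0.617, adjusted p = 0.00345). The IgG libraries were at 147, 216 and 390 CPM, so RIP LPS replicate 4 lay within their range.

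In RNA, LPS over DMSO for Vaultrc5 was log2 0.87 (SE 0.679, adjusted p = 0.337), and 1.26 with adjusted p = 0.0126 with the block. LPS plus TM7nox over LPS was 0.63 (SE 0.676, adjusted p = 0.622). In RIP the corresponding values were 1.57 (SE 0.823, adjusted p = 0.133) and -0.65 (SE 0.807, adjusted p = 0.632). Without RIP LPS replicate 4 both turned direction, to -0.65 and to 1.56 (adjusted p = 0.072). The first passed without RIP LPS replicate 2 (1.91, adjusted p = 0.0484) or RIP DMSO replicate 4 (2.44, adjusted p = 0.0350), and the second with replicates 1 and 2 only (1.68, adjusted p = 0.0222).

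Among the RNase P and RNase MRP RNAs, counts were nearly absent. Rpph1 (ENSMUSG00000092837, chr14:51044906-51045224, minus strand) had a count of 0 in all 27 libraries, which allows up to 0.636 CPM in the shallowest RNA library. Its annotation lies wholly within Ccnb1ip1 on the same strand, which had a count of 0 in all 12 RNA libraries and 5 counts over all 27, and across Parp2 on the other strand, which was at 18.0 to 27.1 CPM in RNA. The Rmrp ribozyme row (ENSMUSG00000088088, chr4:43492788-43493058, minus strand) was at 0 in all 27 libraries too, and the Rmrp lincRNA row (ENSMUSG00000115420, chr4:43492783-43493063, minus strand) held 7 counts in all, spread over 3 RIP libraries. These 2 rows overlap each other on 271 bases, and Ccdc107 runs on the other strand, at 7.63 to 14.8 CPM in RNA. Whether reads in overlapping genes were counted is not given in the sources used here, so a count of 0 in these rows may not measure the RNA, and the part of the overlaps was not tested.

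Rprl2, which overlaps no such gene, was counted at a low level. Its RNA counts in replicates 1 to 4 were 51, 23, 13 and 31 with DMSO, 250, 42, 52 and 43 with LPS, and 14032, 24, 56 and 22 with LPS plus TM7nox. In CPM, replicate 1 was at 10.8, 10.7 and 682 in the 3 treatments, while the other 9 RNA libraries were at 0.418 to 1.79. The 12 RIP libraries held 0 to 4 counts each, and the 3 IgG libraries held 6, 8 and 7. One library therefore sets the mean of LPS plus TM7nox, and replicate 1 was the high library in each treatment.

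In RNA, Rprl2 with LPS plus TM7nox over LPS was log2 5.53 (SE 1.93, adjusted p = 0.0748), and -1.65 without RNA LPS plus TM7nox replicate 1. LPS over DMSO was 1.10 (SE 2.09, adjusted p = 0.715), and -0.18 without RNA LPS replicate 1. RIP over RNA was log2 -4.04 with DMSO, -5.24 with LPS and -10.87 with LPS plus TM7nox, on 11, 7 and 6 RIP counts in all. Rprl2 entered this fit through its RNA counts alone, the side on which it is high, so that it could pass only by being lower in RIP, and these values are a description with no test. Without RNA LPS plus TM7nox replicate 1 the last was -3.93. Leaving out 1 library in turn, the value with DMSO ran from -4.56 to -2.69 and that with LPS from -5.69 to -4.00.

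Rprl3, another RNase P-like RNA, was counted far more often than Rprl2, whereas the third, Rprl1, had a count of 0 in all RNA and RIP libraries and 3 counts in 1 IgG library. The sequences printed above are alike at 267 of 290 bases (92.1%) over their whole length, and their last 56 bases are identical, so reads from that end cannot be told apart. Rpph1 is alike to Rprl2 at 89.2% and to Rprl3 at 89.6% of aligned bases. Rprl3 was at 201, 109, 59.0 and 146 CPM in RNA with DMSO, at 290, 119, 200 and 205 CPM with LPS, and at 1174, 131, 178 and 318 CPM with LPS plus TM7nox. The library with 14032 Rprl2 counts was thus the highest for Rprl3 as well, at 24176 counts. RIP over RNA of Rprl3 with DMSO was log2 -3.23 (SE 0.673, adjusted p = 0.000151).

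**Figure D4:**
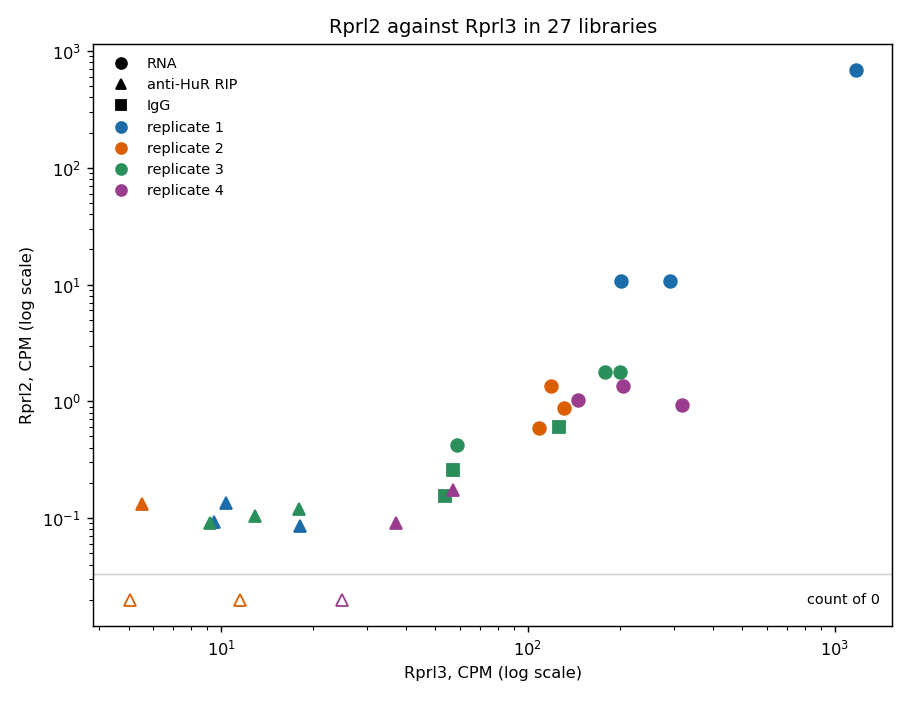
Rprl3 and Rprl2 levels in the 27 libraries, each point 1 library, on log axes in CPM, with libraries where Rprl2 had a count of 0 marked apart. RNA of LPS plus TM7nox replicate 1 lies alone at 682 CPM of Rprl2 and 1174 CPM of Rprl3.

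Whether RIP over RNA changed with treatment was tested as an interaction over both kinds of library. Rn7sk and Vaultrc5 were the members besides Bc1 that passed the filter in both assays. Of these, edgeR called 0 for LPS against DMSO and 0 for LPS plus TM7nox against LPS. In either case 0 had an unadjusted p under 0.05 and 0 were called by DESeq2. Of all genes, 0.0419% and 0.00699% were called. For Rn7sk the changes were log2 -0.17 (95% interval -0.93 to 0.59, adjusted p = 0.961) and -0.10 (95% interval -0.86 to 0.66, adjusted p = 0.975). For Vaultrc5 they were 0.62 (adjusted p = 0.951) and -1.26 (adjusted p = 0.893). For Bc1, whose RIP over RNA was used in its choice, they were 0.53 and -0.57, given as a description with no test. Without RIP LPS replicate 4 both turned direction for Bc1, to -0.30 and 0.41, and for Vaultrc5, to -1.49 and 0.96, as did the second for Rn7sk, to 0.28. The intervals of Rn7sk span a rise and a fall, and a change within them was not detectable here.

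The mRNAs of the proteins that work with these RNAs were read from lists made by known function. In RIP over RNA, 37%, 32.9% and 35.2% of all genes were called higher in the 3 treatments and 33.4%, 30.8% and 34.8% lower. For 7SK, RIP over RNA called the same 3 of the list of 7 higher and the same 3 lower in each treatment. These counts are near those shares, so what follows describes single mRNAs and not the list. The mRNAs of P-TEFb were called higher, with DMSO Ccnt2 by log2 2.51, Ccnt1 by 1.77 and its kinase Cdk9 by 1.2. Larp7, which binds the 3′ end of 7SK, was called lower by -1.39, Hexim1 by -1.28 and the capping enzyme Mepce by -1.0. Hexim2, the relative of Hexim1, was not called in any treatment (with DMSO 0.33, SE 0.364, adjusted p = 0.433). These calls were the same in RIP over IgG, where 33.8% of all genes were called higher and 34.2% lower. In RNA, LPS over DMSO called 1 of the 7 higher, Cdk9 (0.51, adjusted p = 0.0232), and none lower. Of all genes 20.2% were called higher and 21.7% lower, so the list did not pass those shares.

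For vaults, the major vault protein Mvp rose in RNA after LPS by log2 1.39 and the vault polymerase Parp4 by 1.60, while Tep1 fell by 0.36. All 3 were called, where 42% of all genes were, 20.2% higher and 21.7% lower. Parp4 rose further with LPS plus TM7nox over LPS (0.79, adjusted p = 0.0337), the 1 of 3 called, where 13.8% of all genes were. In RIP over RNA, Mvp was called lower in each treatment (-1.89, -1.65 and -1.68) and Parp4 higher (with DMSO by 2.25), and Tep1 was not called. Of all genes, 33.4%, 30.8% and 34.8% were called lower in the 3 treatments and 37%, 32.9% and 35.2% higher. The 1 of 3 in each direction is near those shares. The vault RNA and its main protein's mRNA were thus both below their RNA level in RIP with DMSO, whereas Parp4 mRNA was above it.

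Of the 11 listed proteins of RNase P and RNase MRP, 10 were tested. In RNA after LPS edgeR called 4, all lower, namely Rpp40 (log2 -1.29), Pop5 (-0.95), Rpp25l (-0.63) and Rpp14 (-0.57). The list median was -0.45 against -0.04 over all genes, of which 21.7% were called lower. DESeq2 also called Pop4, which edgeR put at 0.54 (SE 0.256, adjusted p = 0.106). In RIP over RNA 9, 8 and 9 of the 10 were called lower in the 3 treatments, where 33.4%, 30.8% and 34.8% of all genes were, with medians of -1.79, -1.36 and -1.66 against 0.04, -0.06 and -0.09 over all genes. Of the 8 listed partners of Bc1 and of the La and Ro RNA-binding proteins, 7 were called higher in RIP than in RNA in each treatment, with Fmr1 at 3.43 and the poly(A)-binding protein Pabpc1 at 1.67 with DMSO. The La mRNA, Ssb, was called lower with DMSO (-0.78). With LPS 1 of the 8 was called lower, and with LPS plus TM7nox 0 were. In RNA, LPS plus TM7nox over LPS called 3 of the 8 lower, Purb (-0.66), Syncrip (-0.52) and Fmr1 (-0.40), where 6.4% of all genes were called lower. DESeq2 called 6 of the 8, those and Eif4a1, Pura and Ssb.

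Of 30 genes of the RNA polymerase III machinery, 3 rose and 11 fell in RNA after LPS, with a median of -0.05. Of all genes 20.2% were called higher and 21.7% lower, 42% in all. Polr3g, a subunit of the polymerase, fell by 1.83 on the log2 scale. LPS plus TM7nox over LPS called 2 of them higher, where 7.37% of all genes were.

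Other small structured RNAs lay on both sides in RIP over RNA. Of 12 tested, with DMSO 3 were called higher, the spliceosomal RNAs Rnu5g (log2 3.57) and Rnu1a1 (1.84) and the Y RNA Rny3 (1.74). Another 4 were called lower, Rprl3 (-3.23), the signal recognition particle RNAs Rn7s1 (-2.49) and Rn7s2 (-2.44), and the U8 RNA Snord118 (-2.21). With LPS 2 were called higher and 5 lower, and with LPS plus TM7nox 4 and 6. These counts stand beside 37%, 32.9% and 35.2% of all genes called higher and 33.4%, 30.8% and 34.8% called lower in the 3 treatments, and with DMSO they are near or under those shares. In RNA after LPS edgeR called 0 of the 12, with 0 at an unadjusted p under 0.05 and 0 by DESeq2, and their median was 0.60 against -0.04 over all genes. Of 5 long nuclear RNAs, 5, 2 and 4 were called higher in RIP than in RNA in the 3 treatments, where 37%, 32.9% and 35.2% of all genes were, Malat1 by 1.41 and Neat1 by 2.10 with DMSO. In RIP over IgG, where 68.1% of all genes were called, 1 of the 5 was, Firre (2.5), while Malat1 was at 0.25 (adjusted p = 0.427) and Neat1 at -0.47 (adjusted p = 0.360).

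The genes whose levels moved most like each member over the 24 RNA and RIP libraries were found by Pearson correlation of log2 CPM among 8311 genes. For Bc1 they were Acbd6 (r = 0.963), Slc4a2 (0.959) and Rpl37 (0.959), and for Rn7sk Hsp90b1 (0.979), Rpf1 (0.973) and Nol7 (0.972). For Vaultrc5 they were Rn7s2 (0.962), Rps28 (0.956) and Rn7s1 (0.955), and for Rprl2 Tmem63b (0.878), Pdrg1 (0.867) and Slc4a2 (0.861). The 24 libraries differ in assay and depth, which all genes of a library share, and the values are a description. Within the 12 RNA libraries alone Vaultrc5 had r of 0.934 with Rn7s2 and 0.953 with Rn7s1, and Bc1 had 0.765 with Acbd6.

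Among the members themselves, over the 12 RNA libraries r was 0.71 for Rn7sk and Vaultrc5, 0.42 for Bc1 and Rn7sk and 0.00 for Bc1 and Vaultrc5. Over the 12 RIP libraries, which include RIP LPS replicate 4, it was 0.74, 0.82 and 0.80. For Rprl2 over the 12 RNA libraries, r was 0.70 with Bc1, 0.31 with Rn7sk and -0.31 with Vaultrc5. Bc1 and Vaultrc5 were high in different RNA libraries and in the same RIP library.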

How the data were processed

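The authors deposited 1 table of raw read counts per gene for 27 libraries, made per the submitters' processing notes with FastQC 0.11.9, STAR, HTSeq and DESeq2 on GRCm39. Per the labels' protocols, RNA was fragmented and made into libraries with a stranded SMART-Seq kit. Neither the annotation release, the strand setting nor the treatment of reads that fit several genes or places is given in the sources used here. Counts were tested with edgeR 4.0.16 (R 4.3.3, limma 3.58.1): TMM scaling, filterByExpr with a minimum count of 10, quasi-likelihood test, Benjamini-Hochberg adjustment over all genes tested, threshold 0.05. SE is the log2 fold change divided by the square root of F. RNA (12 libraries), RIP (12), both (24) and RIP with IgG (15, treatment as covariate) were fitted separately. Printed CPM are on 1 TMM scale over 27 libraries.

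Alternatives were DESeq2 1.42.0, its size factors in edgeR, library totals, no filter, the replicate number as a block, replicates 1 and 2 or 3 and 4 only, and leaving out each library. Same-numbered libraries deviated together in every pair (correlation of deviations from group means 0.143 to 0.507), so the numbers, which come from the labels, pair the samples. The main fits leave this pairing out, and the fit with the block takes it in. None of the 36 pairs of libraries within an RNA or RIP group agreed within sampling noise. The script was tested on simulated counts.

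The members and lists were chosen with earlier results of these data known. Named by rule are all members, at most 2 called genes with the largest change in each direction per list, and the 3 genes with the highest correlation to each member among named genes with a mean of at least 5 CPM. Further list genes in the text, such as Mepce, Rpp14, Snord118, Pabpc1 and Hexim2, were chosen after their values were seen. Of the 7 rows, 5 were matched to GENCODE by Ensembl ID and 2 by MGI accession. Copies were sought with BLAST+ 2.17.0, sequences read with Biopython 1.88 and plots drawn with matplotlib 3.10.9. The Vaultrc5 sequence is not reported here.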

Additional observations from a re-analysis of the deposited data

Results flagged for a closer look

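In 5 of the 21 groups of 4 libraries tested, 1 library stood apart from the other 3 by Dixon's criterion, which chance meets in about 1 in 20 groups. Bc1 in RIP with LPS was at 16.5 CPM in replicate 4, where the next library was at 3.98. Vaultrc5 in the same library was at 289 CPM, where the next was at 25.5. Rprl2 in RNA was highest in replicate 1 of each treatment, at 10.8 CPM with DMSO (next 1.02), 10.7 CPM with LPS (next 1.79) and 682 CPM with LPS plus TM7nox (next 1.77). Why these libraries stood apart was not tested.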

How the results depend on the processing

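The shares in brackets are those of all genes called under the same setting. The number of members called for LPS over DMSO in RNA, 1 of 4 (42%), was 0 with library totals (47.6%), 4 with no filter (17.3%), 3 with the replicate block (49.5%), 0 with replicates 1 and 2 only (13.4%), 3 with replicates 3 and 4 only (58.7%), and 0 to 1 when 1 library was left out. For LPS plus TM7nox over LPS in RNA, 0 (13.8%) became 1 with DESeq2 (18.5%), 2 with no filter (6.01%), 1 with the replicate block (23.0%) and 1 with replicates 3 and 4 only (27.9%). For LPS over DMSO in RIP, 0 (44.7%) became 1 with DESeq2 (47.4%), 2 with no filter (16.5%), 1 with the replicate block (57.1%), 1 with replicates 3 and 4 only (40.7%), and 0 to 2 when 1 library was left out. For LPS plus TM7nox over LPS in RIP, 0 (16.2%) became 1 with no filter (6.25%) and 1 with replicates 1 and 2 only (5.59%). For RIP over RNA, counts that hold Rprl2, which could pass only as lower in RIP, support nothing and are given for completeness. They were 2 of 3 with DMSO (70.4%) and 1 to 3 when 1 library was left out, 1 without RNA DMSO replicate 2. With LPS they were 2 of 3 (63.7%), 1 with DESeq2 (63.6%), 1 with its size factors (62.0%) and 1 to 3 when 1 library was left out. RIP over IgG called 1 of 2 with DESeq2 (68.3%), which gave no adjusted p for Vaultrc5. The change of RIP over RNA between LPS plus TM7nox and LPS called 2 with no filter (0.0128%), Vaultrc5 and Rprl2, where 0 were called before.

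Of the tested and described log2 values of the members under the alternatives, 857 kept their direction and, where judged by it, their side of the threshold. Another 37 newly passed, 13 no longer passed, 33 turned direction and 2 moved beyond the replicate spread. Values of Bc1 in RIP over RNA and RIP over IgG were judged by that spread alone. The tally also holds Rprl2 in RIP over RNA, which supports nothing. There 5 of its values newly passed with DMSO and 7 no longer passed with LPS. With library totals Rn7sk in RIP for LPS over DMSO turned to -0.13, Bc1 moved to -5.81 in RIP over RNA with LPS plus TM7nox and to -2.55 in RIP over IgG. With the replicate block Vaultrc5 turned to 0.60 in RIP for LPS plus TM7nox over LPS and to -0.0140 for its change of RIP over RNA with LPS. The block changed no call of a member other than those given in the report and that of Rprl2 in RIP over RNA with DMSO. With replicates 3 and 4 only, LPS plus TM7nox over LPS turned for Bc1 (-0.0789) and Rprl2 (-0.15) in RNA and for Rn7sk in RIP (-0.00704), and the change of RIP over RNA with LPS turned for Rn7sk (0.10) and Rprl2 (0.0367). With replicates 1 and 2 only, LPS plus TM7nox over LPS in RIP turned for Bc1 (0.95) and Vaultrc5 (1.68). There the change of RIP over RNA turned for Bc1 with LPS (-0.27), and with LPS plus TM7nox against LPS for Bc1 (0.63), Rn7sk (0.46) and Vaultrc5 (0.81). The cause was not tested.

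Leaving out 1 library in turn, LPS over DMSO in RNA ran from -0.0113 to 1.30 for Bc1 and from -0.18 to 2.45 for Rprl2, and LPS plus TM7nox over LPS in RNA from -0.43 to 0.75 for Bc1 and from -1.65 to 6.85 for Rprl2. In RIP, LPS over DMSO ran from -0.65 to 2.44 for Vaultrc5, and LPS plus TM7nox over LPS from -0.63 to 0.63 for Bc1 and from -1.0 to 1.56 for Vaultrc5. The change of RIP over RNA with LPS ran from -0.30 to 0.96 for Bc1, -0.42 to 0.11 for Rn7sk, -1.49 to 1.52 for Vaultrc5 and -2.55 to 0.0431 for Rprl2. With LPS plus TM7nox against LPS it ran from -0.99 to 0.41 for Bc1, -0.35 to 0.28 for Rn7sk, -1.61 to 0.96 for Vaultrc5 and -6.87 to 1.32 for Rprl2. RIP over RNA of Rn7sk was called in each treatment under all 31 alternatives run.

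Library totals moved the median log2 value of all genes by -0.28 for LPS over DMSO in RNA (1629 called higher and 4253 lower, against 2500 and 2690 with TMM), by -0.63 in RIP (1299 and 6428, against 3201 and 2889), by -0.76, -1.0 and -0.98 for RIP over RNA in the 3 treatments (3776 and 7113, 2833 and 8134, 3324 and 7903, against 5300 and 4775, 4708 and 4401, 5031 and 4975) and by -1.02 for RIP over IgG (2903 and 8357, against 5067 and 5127). DESeq2 size factors moved it by 0.16, 0.18 and 0.22 for RIP over RNA and 0.13 for RIP over IgG. Library totals moved the median change of RIP over RNA with LPS by -0.23.

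Few counts limit the precision of Rprl2 in RIP, where no library held more than 4. RNA DMSO replicate 1, at 2728534 counts, is the shallowest library. IgG against RNA was not tested.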
